A study of Mus musculus with 14 samples.

Results

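The neurotrophins and the receptors they signal through were examined by gene, with 6 genes taken as a given list: the ligand genes Bdnf and Ntf3, the tyrosine kinase receptor genes Ntrk2 (TrkB) and Ntrk3 (TrkC), the pan-neurotrophin receptor gene Ngfr and its co-receptor gene Sort1 (sortilin). They are 6 of the 43629 gene identifiers in the count tables, and all 6 were among the 15959 genes that passed the filter on low counts. Transcripts were measured by RNA-seq in primary hippocampal cultures of wild-type C57BL6 mice, plated at postnatal day 0 to 1 and studied after 14 days in vitro. The 4 CTRL cultures received the solvent DMSO (0.1%) and the 4 PTX cultures received 100 µM picrotoxin, a blocker of GABA-A receptors that removes fast inhibition, each for 15 h. Binding of the chromatin reader L3mbtl1 was measured by ChIP-seq in untreated hippocampus of C57BL6/129 mice at postnatal day 7 to 8, from 3 wild-type and 3 L3mbtl1-/- samples, and 1 joint list of 4677 peaks was used. The cultures are mixtures of cells from a newborn brain, and the age, strain and tissue preparation differ between the RNA-seq and the ChIP-seq samples. The design text calls the samples biological replicates, but the labels do not say whether the 4 cultures of a group came from separate litters.

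Neurotrophins are secreted growth factors made as larger precursors. The mature dimer activates Trk tyrosine kinases, with BDNF and NT-4 acting on TrkB and NT-3 mainly on TrkC, and the downstream Ras, PI3-kinase and phospholipase C pathways promote survival, dendrite growth and synaptic strengthening. The unprocessed precursor instead binds the Ngfr product together with sortilin, a pairing linked to cell death and synaptic weakening, and sortilin also steers pro-BDNF into vesicles whose release follows activity. In the hippocampus Bdnf is a classic activity-regulated gene, transcribed from several alternative first exons under separate promoters.

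The promoter sequences that bear on the results are those in which the data place a peak or a motif. The RefSeq table (GRCm38.p6, the assembly of mm10) held 7 start windows for Bdnf, 2 for Ntf3, 1 for Ntrk2 and 1 for Ngfr, each running from 250 bases before to 50 bases after a start. The window of the lowest Bdnf start, chr2:109674450-109674749 on the plus strand, is shown because 91 of its bases, in capitals, lay inside an L3mbtl1 peak. The Ntrk2 window, chr13:58806319-58806618 on the plus strand, is shown for the same reason, with 49 bases in capitals inside a peak. The third Bdnf window, chr2:109692186-109692485 on the plus strand, is shown for the cAMP response element core CGTCA, in capitals, at -35 relative to the start.
Bdnf start 1: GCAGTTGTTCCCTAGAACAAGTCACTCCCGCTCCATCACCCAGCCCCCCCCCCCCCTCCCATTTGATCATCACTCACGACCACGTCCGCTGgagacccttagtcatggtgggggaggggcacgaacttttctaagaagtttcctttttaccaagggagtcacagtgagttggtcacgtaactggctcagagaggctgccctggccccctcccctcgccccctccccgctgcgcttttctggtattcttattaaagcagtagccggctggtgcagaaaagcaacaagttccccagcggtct
Ntrk2 start: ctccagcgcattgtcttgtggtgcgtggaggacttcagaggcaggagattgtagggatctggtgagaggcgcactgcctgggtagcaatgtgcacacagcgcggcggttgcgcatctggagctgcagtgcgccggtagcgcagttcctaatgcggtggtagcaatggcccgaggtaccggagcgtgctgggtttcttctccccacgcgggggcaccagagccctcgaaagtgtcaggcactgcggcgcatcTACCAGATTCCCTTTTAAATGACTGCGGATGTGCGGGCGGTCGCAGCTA
Bdnf start 3: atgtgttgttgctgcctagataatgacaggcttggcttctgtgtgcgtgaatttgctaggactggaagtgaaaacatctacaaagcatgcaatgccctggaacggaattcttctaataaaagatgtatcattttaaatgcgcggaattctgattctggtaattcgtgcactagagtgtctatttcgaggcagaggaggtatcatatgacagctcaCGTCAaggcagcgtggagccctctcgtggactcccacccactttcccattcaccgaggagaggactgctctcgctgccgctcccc

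Both strands of all windows were searched for short motifs. The core (CGTCA or TGACG) was found in 1 of the 7 Bdnf windows and in 20.8% of the 32817 mouse windows of 300 bases. The full element TGACGTCA, which contains the core, was in 0 of the 7 windows and 1.79% of all windows. The AP-1 motif TGANTCA was in the second Bdnf window, at -152, and in 7.81% of all windows. The E-box CACGTG was in 0 Bdnf windows, in the window of the first Ntf3 start (at -231) and in 7.15% of all windows. The GC box GGGCGG was in Bdnf windows 2 and 4, in both Ntf3 windows, in the Ntrk2 window (at 35) and at 4 positions in the Ngfr window, against 35.6% of all windows. The Ntrk2 window was 61.3% G and C with 23 CpG dinucleotides and the Ngfr window 71.7% with 23, above the medians of all windows (52.7% and 7). The Bdnf windows ranged from 38.7% to 58.0% G and C and from 2 to 13 CpG. Matches are letters in these windows and were not tested as binding sites.

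Of the 6 genes, Bdnf and Ntrk2 rose, Sort1 fell and Ntf3, Ntrk3 and Ngfr did not pass the test (edgeR quasi-likelihood test, Benjamini-Hochberg adjusted p under 0.05 over all tested genes). This fit does not pair the cultures by replicate number. With the number as a block Ntrk3 passed as a fall (edgeR adjusted p = 0.0368). Picrotoxin changed a large share of the transcriptome, since 39.2% of tested genes were called, 19.0% as rises and 20.1% as falls. The 3 called genes of 6 are therefore close to that background as a count, and the sizes of the changes are what distinguishes the members from each other. The 3 called genes had groups that did not overlap, as did 38.0% of tested genes. Levels below are CPM, read counts scaled to TMM-adjusted library size, and because no transcript lengths were used, levels are compared between libraries for a gene and not between genes. They are transcript levels of whole cultures, in which fewer cells of a type and less RNA per cell cannot be told apart, and protein was not measured.

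**Figure D1:**
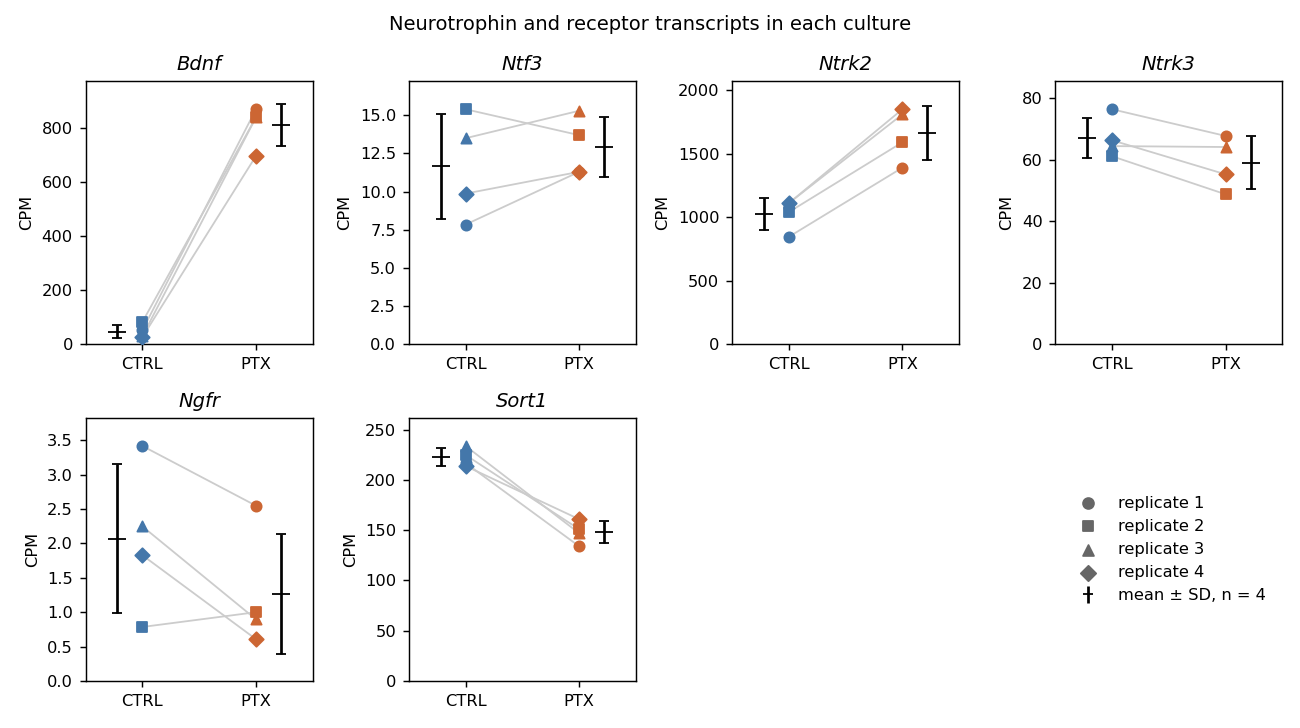
Level of each of the 6 genes in CPM (linear axes from 0) in the 4 CTRL (blue) and 4 PTX (orange) cultures; marker shapes give the replicate number, grey lines join equal numbers and black bars are group means with SD. The groups are separate for Bdnf (25.9 to 82.1 against 697 to 870 CPM), Ntrk2 and Sort1 and overlap for Ntf3, Ntrk3 and Ngfr.

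Bdnf (ENSMUSG00000048482, chromosome 2, 109674700 to 109727043), the main ligand of TrkB, had the largest change of the 6. Its level was 51, 82.1, 29.2 and 25.9 CPM in CTRL replicates 1 to 4 and 870, 840, 840 and 697 CPM in PTX replicates 1 to 4. Every PTX library was thus far above every CTRL library, and the relative spread was wider in CTRL, where replicate 2 was highest. The mean went from 47.03 ± 25.89 to 811.6 ± 77.83 CPM (SD, n = 4 each), a 17.2-fold rise. The log2 fold change was 4.11 (SE 0.35, 95% interval 3.33 to 4.89, edgeR adjusted p = 1.6e-05), which ranked 91 of 15959 among all genes from the largest rise down. Within culture pairs of the same replicate number the rise was 17.1-, 10.2-, 28.8- and 26.9-fold. The raw counts behind these values ran from 396 to 1463 in CTRL and from 11484 to 14244 in PTX. The table sums all Bdnf transcripts, so the 7 starts could not be compared.

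Ntf3 (ENSMUSG00000049107, chromosome 6, 126101412 to 126166772), encoding NT-3, stayed within its control range. Its level was 7.84, 15.4, 13.5 and 9.87 CPM in the CTRL cultures and 11.3, 13.7, 15.3 and 11.3 CPM in the PTX cultures. All 4 PTX values lay between the lowest and the highest CTRL value. The means were 11.65 ± 3.43 and 12.91 ± 1.95 CPM (SD, n = 4 each), with a log2 difference of 0.14 (SE 0.21, 95% interval -0.32 to 0.61, edgeR adjusted p = 0.632). The ratio of Bdnf to Ntf3 counts within a library, which does not depend on scaling, was 6.5, 5.32, 2.16 and 2.62 in CTRL and 77, 61.4, 54.9 and 61.4 in PTX. Its mean log2 value was 1.90 ± 0.77 in CTRL and 5.98 ± 0.21 in PTX (SD, n = 4 each), without overlap. Ntf5, encoding NT-4, the other ligand of TrkB, had 0 to 4 counts in any library and was too low to be tested.

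Ntrk2 (ENSMUSG00000055254, chromosome 13, 58806472 to 59133970), encoding TrkB, rose together with its ligand gene but by less. Its level was 845, 1040, 1110 and 1110 CPM in CTRL and 1390, 1590, 1810 and 1850 CPM in PTX. The lowest PTX culture was above the highest CTRL culture, and in each group replicate 1 was lowest. The mean went from 1028 ± 126 to 1661 ± 213 CPM (SD, n = 4 each), 1.62-fold, with a log2 fold change of 0.69 (SE 0.12, 95% interval 0.41 to 0.97, edgeR adjusted p = 0.00165). By replicate number the rise was even, at 1.64-, 1.53-, 1.63- and 1.67-fold. Neurons make full-length TrkB and astrocytes mainly a truncated form without the kinase, and the table does not separate them. Of 8 astrocyte markers, 4 fell (Gfap, Aqp4, Slc1a2 and Aldoc) and 0 rose. The summed level of all 8 was 6200 to 8380 CPM in CTRL and 4520 to 6250 CPM in PTX. Slc1a3, which was not called, gave 2190 to 3360 CPM of this in CTRL and 1990 to 3280 CPM in PTX. Aldh1l1 was not called either, at 140 to 194 CPM in CTRL and 117 to 220 CPM in PTX. Of 6 general neuron markers, Map2 and Snap25 rose and Rbfox3 fell, with a median log2 fold change of -0.17. Their summed levels were 3800 to 4740 CPM in CTRL and 4520 to 5930 CPM in PTX. Map2 alone gave 1720 to 2480 CPM of this in CTRL and 2310 to 3460 CPM in PTX. With the replicate block 6 astrocyte markers fell, and 2 neuron markers rose and 3 fell. That fit called 55.3% of all tested genes. The part of these cell types in the Ntrk2 result was not tested. The gene model Gm53063 overlaps Ntrk2, and the strand setting of the counting is not given in the sources used here, so its reads could not be told apart.

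Ntrk3 (ENSMUSG00000059146, chromosome 7, 78179986 to 78581034), encoding the NT-3 receptor TrkC, was at 76.5, 61.2, 64.5 and 66.4 CPM in CTRL and at 67.8, 48.8, 64.2 and 55.3 CPM in PTX. The groups overlapped, and replicate 1 was highest in both. The means were 67.12 ± 6.60 and 59.03 ± 8.61 CPM (SD, n = 4 each), and the log2 difference of -0.19 (SE 0.12, 95% interval -0.45 to 0.08) did not pass (edgeR adjusted p = 0.246). Each PTX culture was below the CTRL culture of its number, narrowly for replicate 3 (64.2 against 64.5 CPM). With the replicate number as a block the same difference of -0.19 passed (edgeR adjusted p = 0.0368), in a fit that called 55.3% of all tested genes, 25.7% as rises and 29.6% as falls. The gene model Gm39038 overlaps Ntrk3. The ratio of Ntrk2 to Ntrk3 counts was 11.1, 17.1, 17.3 and 16.7 in CTRL and 20.5, 32.7, 28.2 and 33.4 in PTX. Its mean log2 value was 3.93 ± 0.31 and 4.82 ± 0.33 (SD, n = 4 each), and the groups did not overlap.

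Ngfr (ENSMUSG00000000120, chromosome 11, 95568818 to 95587698), whose product binds all mature and precursor neurotrophins, was low throughout. It had 58, 14, 45 and 28 counts in CTRL and 40, 17, 13 and 10 in PTX, or 3.42, 0.785, 2.25 and 1.83 against 2.55, 1, 0.896 and 0.607 CPM. The groups overlapped, and replicate 1 was highest in each. The log2 difference was -0.71 (SE 0.51, 95% interval -1.85 to 0.43, edgeR adjusted p = 0.31), an interval that spans both a clear fall and a modest rise. Without CTRL replicate 1 the difference was -0.30, and without PTX replicate 1 it was -1.25. The summed level of 8 markers of meningeal fibroblasts, a cell type of the brain coverings, was also highest in the libraries numbered 1, with 710 CPM in CTRL and 565 CPM in PTX against 115 to 225 CPM in the other 6, although the marker Ogn was lowest there (73.9 CPM in CTRL and 53.1 CPM in PTX). Without both libraries the Ngfr difference was -0.92 (edgeR adjusted p = 0.125). Of the 8 fibroblast markers 0 were called, or 4 falls with the replicate block, and their part in the Ngfr level was not tested. Schwann cells, peripheral glia that carry the Ngfr product, had 5 listed markers, of which 1 rose (Gap43, also a neuronal gene) and 0 fell, and with the replicate block Cdh19 fell (log2 difference -0.94, edgeR adjusted p = 0.000933).

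Sort1 (ENSMUSG00000068747, chromosome 3, 108283974 to 108361519), encoding sortilin, fell. Its level was 217, 225, 234 and 214 CPM in CTRL and 134, 151, 147 and 161 CPM in PTX. The highest PTX culture was well below the lowest CTRL culture. The mean went from 222.8 ± 8.94 to 148.4 ± 11.1 CPM (SD, n = 4 each), 1.5-fold lower, with a log2 fold change of -0.59 (SE 0.08, 95% interval -0.76 to -0.41, edgeR adjusted p = 0.000262). By replicate number Sort1 was 1.62-, 1.49-, 1.59- and 1.33-fold lower. The ratio of Ngfr to Sort1 counts overlapped between the groups, with mean log2 values of -6.93 ± 0.90 and -7.09 ± 0.98 (SD, n = 4 each).

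Genes acting around these ligands and receptors were counted from lists by role. Of 13 enzymes that cleave pro-neurotrophins, and their inhibitors, 11 were tested, 6 rose and 2 fell. The called share was 72.7% against 39.2% of all tested genes, and the median log2 fold change 0.72 against -0.03. Pcsk1, a convertase of the regulated secretory pathway, was at 36.4, 62.4, 25.4 and 25.6 CPM in CTRL and at 782, 751, 1100 and 823 CPM in PTX. Its groups were far apart, and it rose 23-fold (37.45 ± 17.4 to 862.8 ± 158 CPM, SD, n = 4 each, edgeR adjusted p = 4.79e-06). Pcsk2, the second convertase of that pathway, fell 2.19-fold (162.6 ± 20.0 to 74.15 ± 4.91 CPM). Furin, the convertase of the trans-Golgi network, rose 2.41-fold (15.33 ± 1.59 to 36.91 ± 5.41 CPM). Plat, encoding the tissue plasminogen activator that starts extracellular cleavage of pro-BDNF, rose 2.31-fold (90.83 ± 26.5 to 210.0 ± 25.3 CPM). Serpini1, encoding neuroserpin, an inhibitor of the Plat product, fell 1.36-fold (edgeR adjusted p = 0.0235). Rises also included Pcsk5 (1.65-fold) and Mmp3 (5.04-fold, edgeR adjusted p = 0.043). Mmp3 groups overlapped, and its highest values, 3.89 CPM in CTRL and 13.5 CPM in PTX, were again in the libraries numbered 1. Mmp3 no longer passed when any of CTRL replicates 2, 3 and 4 or PTX replicates 1, 2 and 3 was left out (edgeR adjusted p up to 0.108). Serpini1 no longer passed when any of CTRL replicates 1 and 3 or PTX replicates 2, 3 and 4 was left out (edgeR adjusted p up to 0.124). With the replicate block 7 of the 11 tested genes of the list rose and 4 fell, in a fit that called 55.3% of all tested genes.

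Among 16 genes of the sortilin family and of proteins that work with the Ngfr product, 7 rose and 3 fell. The called share was 62.5%, against 39.2% of all tested genes, and the median log2 fold change was 0.20. The sorting receptors of the sortilin family moved in different directions. Sorl1 fell 1.41-fold (198.5 ± 14.7 to 140.9 ± 18.9 CPM, SD, n = 4 each) and Sorcs2 1.48-fold (78.54 ± 6.04 to 53.13 ± 6.56 CPM), as Sort1 did. Sorcs3 rose 4.49-fold, from 32, 53.3, 32.2 and 32.7 CPM in CTRL to 162, 174, 182 and 156 CPM in PTX (edgeR adjusted p = 1.01e-05). Sorcs1 was at 52.92 ± 9.45 and 46.94 ± 11.7 CPM (edgeR adjusted p = 0.508). Lingo1, a co-receptor of the Ngfr product in signalling that restrains axon growth, fell 1.8-fold (50.37 ± 6.83 to 27.96 ± 4.55 CPM). The other 6 rises were at most 1.55-fold (Rtn4r), and the number of calls went down to 6 without CTRL replicate 3 and 5 without CTRL replicate 4.

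Of 37 genes that carry the signal inside the cell from Trk receptors, 11 rose and 9 fell. The called share was 54.1%, against 39.2% of all tested genes, and the median log2 fold change was -0.04. Mapk3, encoding the kinase ERK1, fell 2.25-fold (43.2 ± 4.11 to 19.22 ± 2.2 CPM, SD, n = 4 each, edgeR adjusted p = 2.79e-05). The adaptor genes Gab2 and Irs2 rose 2.61-fold (26.2 ± 2.57 to 68.28 ± 11.3 CPM) and 2.15-fold (21.94 ± 4.69 to 47.12 ± 5.69 CPM). The adaptor gene Sh2b2 also rose (2.68-fold, from 2.54 ± 0.17 to 6.83 ± 1.77 CPM), and Slitrk5, encoding a membrane protein that binds TrkB, rose 1.44-fold.

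Of 9 genes for transport and release of BDNF vesicles, 2 rose and 2 fell (median log2 fold change -0.26). The called share was 44.4%, near the 39.2% of all tested genes. With the replicate block 2 rose and 5 fell, in a fit that called 55.3% of all tested genes. Syt4, encoding a synaptotagmin found on BDNF vesicles, was at 331, 293, 266 and 238 CPM in CTRL and at 3660, 2710, 3780 and 3240 CPM in PTX. It rose 11.9-fold (281.8 ± 39.7 to 3349 ± 483 CPM, SD, n = 4 each, edgeR adjusted p = 4.7e-07), with no overlap. Htt, encoding huntingtin, which helps move BDNF vesicles along axons, rose 1.55-fold (110.6 ± 11.4 to 171.4 ± 35.9 CPM). Its partner gene Hap1 fell 2.45-fold (177.3 ± 13.1 to 72.43 ± 12.4 CPM), and Cadps2, a priming factor of dense-core vesicles, fell 2.49-fold (74.51 ± 13.7 to 29.91 ± 3.75 CPM).

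Of 20 factors known to act at Bdnf promoters, 3 rose and 5 fell, with a median log2 fold change of -0.04. The called share of 40% was near the background of 39.2%. With the replicate block 6 rose and 5 fell, also near the share of that fit, which called 55.3% of all tested genes. Npas4, an activity-induced transcription factor, rose 9.43-fold, from 3.13, 11.1, 4.59 and 4.25 CPM in CTRL to 56.2, 51.1, 54.6 and 55.9 CPM in PTX (edgeR adjusted p = 4.55e-05). Crem, a relative of CREB, rose 3.68-fold (23.57 ± 2.86 to 86.68 ± 6.35 CPM, SD, n = 4 each), and Bhlhe40, a repressor that binds E-boxes, 1.33-fold (edgeR adjusted p = 0.0378). Bhlhe40 no longer passed when CTRL replicate 2, CTRL replicate 4 or PTX replicate 4 was left out (edgeR adjusted p up to 0.0874), nor with upper quartile scaling. The falls were Mef2a (1.98-fold), Carf (1.69-fold), Crtc1 (1.68-fold), Mef2c (1.41-fold) and Usf1 (1.41-fold). Creb1, encoding CREB itself, was at 142.3 ± 11.8 and 146.8 ± 8.92 CPM (SD, n = 4 each, edgeR adjusted p = 0.72).

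Of 13 genes of other neurotrophic factors and their receptors 8 were tested, 5 rose and 1 fell (median log2 fold change 0.48). The called share was 75%, against 39.2% of all tested genes. Ret, the kinase receptor of the GDNF family, rose 2.87-fold (2.41 ± 0.43 to 6.95 ± 2.17 CPM, SD, n = 4 each) and its co-receptor gene Gfra1 2.31-fold (49.45 ± 10.8 to 114.4 ± 8.75 CPM). The ligand gene Gdnf rose 2.17-fold at a low level (0.467 ± 0.058 to 1.03 ± 0.22 CPM), Gfra2 1.4-fold (edgeR adjusted p = 0.0368) and Manf, a factor of the endoplasmic reticulum, 1.39-fold. Gfra4 fell 2.44-fold (16.58 ± 1.24 to 6.79 ± 1.91 CPM). Gfra2 no longer passed when any of CTRL replicates 2, 3 and 4 or PTX replicate 2 was left out (edgeR adjusted p up to 0.0917).

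**Figure D2:**
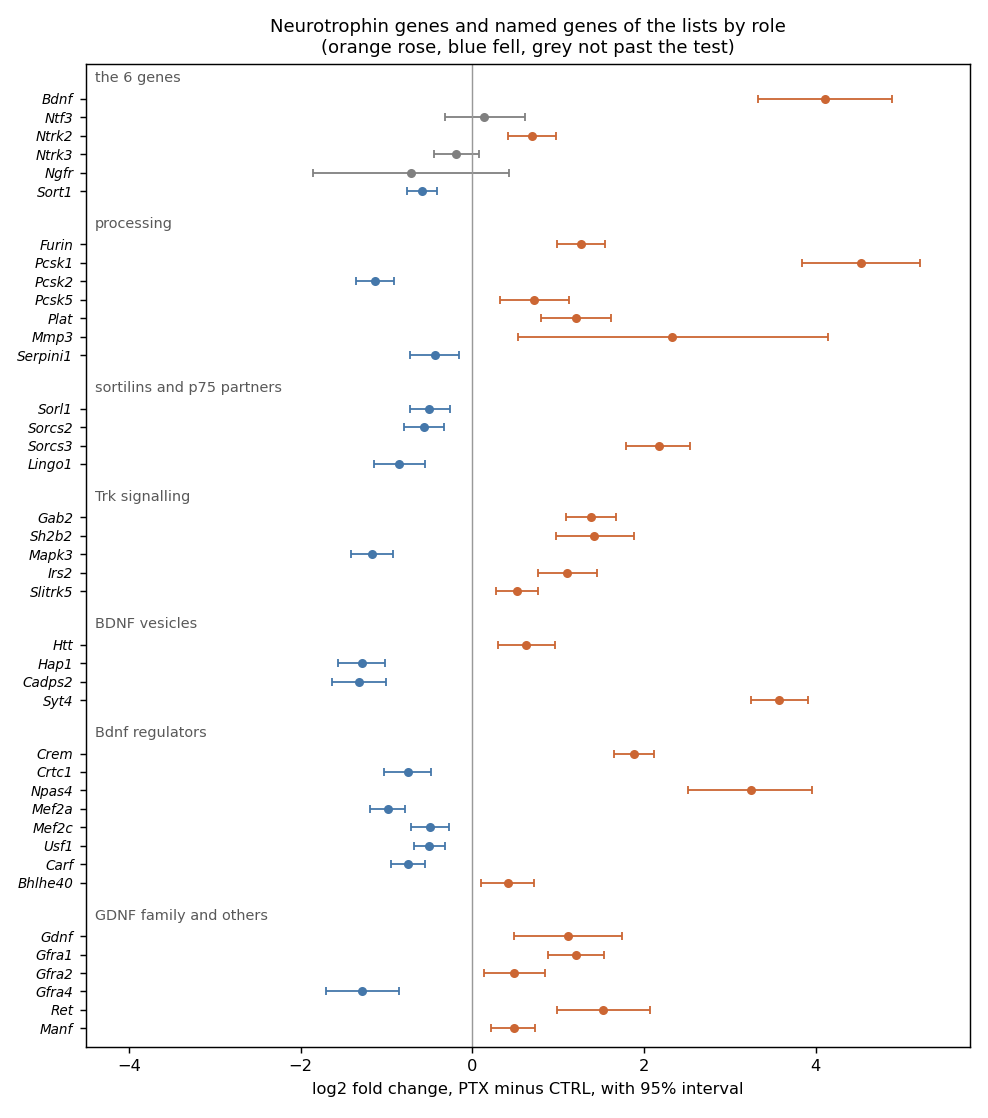
Log2 fold change of PTX over CTRL (points) with its 95% interval from the edgeR fit (bars) for the 6 genes and the named genes of the lists by role; orange rose, blue fell and grey did not pass. The intervals of Bdnf (3.33 to 4.89), Ntrk2 (0.41 to 0.97) and Sort1 (-0.76 to -0.41) lie clear of 0, and those of Ntf3, Ntrk3 and Ngfr include it.

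**Figure D3:**
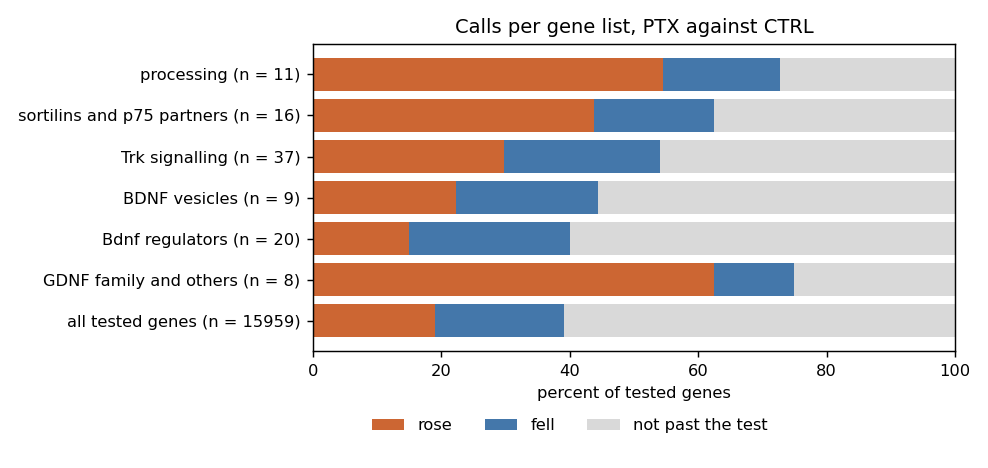
Share of the tested genes of each list by role, and of all tested genes, that rose (orange), fell (blue) or did not pass the test (grey), in percent. Of the processing genes 6 of 11 rose and 2 fell, and the bottom bar shows the background, in which 19.0% rose and 20.1% fell.

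For each of the 6 genes the 3 genes of nearest profile over the 8 libraries were taken, by the root mean square difference of centred log2 CPM. This likeness includes the PTX against CTRL difference itself and the spread among replicates. Nearest to Bdnf were Ghsr, the ghrelin receptor gene (difference 0.256), Pcsk1 (0.276) and Adcyap1, encoding the neuropeptide PACAP (0.294). Ghsr had only 10, 18, 8 and 5 counts in CTRL replicates 1 to 4, so its CTRL profile rests on few reads. CTRL replicate 2 was the highest CTRL library for Bdnf (82.1 CPM) and for Ghsr (1.01), Pcsk1 (62.4) and Adcyap1 (35.1). These neighbours were chosen by likeness over the same libraries, so that shared high follows in part from the choice. CTRL replicate 2 was also highest for Npas4 (11.1) and Sorcs3 (53.3), but not for every gene that rose. The highest CTRL library was replicate 1 for Syt4 (331 CPM), replicate 3 for Gfra1 (62.3) and replicate 4 for Furin (17.1). Nearest to Ntrk2 were Pde3b (0.052), Slc16a9 (0.075) and Stat3 (0.079), and nearest to Sort1 were Rxrb (0.035), Smarcc2 (0.038) and Fbxo3 (0.05). For Ntrk3 they included Dapk1 (0.046) and Dgki (0.049), and for Ntf3 F3 (0.109), Ddt (0.135) and Smoc1 (0.139). Ngfr had the least close neighbours, Eya2 (0.328), Gm38178 (0.33) and Trp53i11 (0.363).

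**Figure D4:**
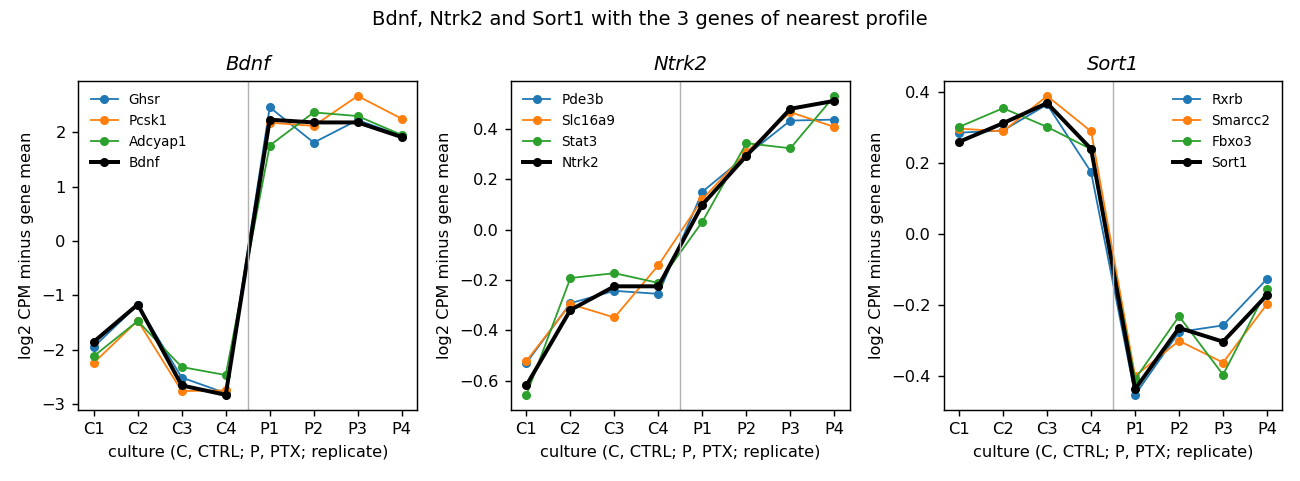
Log2 CPM minus the gene's mean over the 8 libraries for Bdnf, Ntrk2 and Sort1 (black) and the 3 genes nearest to each (coloured), with CTRL libraries C1 to C4 and PTX libraries P1 to P4; the lines only join the points of a gene. The Bdnf panel shows CTRL replicate 2 above the other CTRL libraries for all 4 genes, and in the Ntrk2 panel CTRL replicate 1 is lowest for all 4.

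L3mbtl1 peaks lay within 2000 bp of a gene end for Bdnf, Ntrk2 and Sort1, 3 of the 6 genes, against 18.0% of all 21631 annotated protein-coding genes and 26.4% of the 13657 that were tested in RNA-seq. These are the same 3 genes that passed the test under picrotoxin. Over all tested protein-coding genes a peak was present at 28.3% of called genes and 25.1% of the others, which is given with no test. The peaks come from untreated tissue, and their score is the authors' own, of unstated meaning, so it only ranks peaks within the list.

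The Bdnf peak (chromosome 2, 109673325 to 109674540 in mm10, 1216 bp) ended 160 bp before the lowest RefSeq start and covered the 91 bases in capitals in the sequence of Bdnf start 1. The second start was 2492 bp from the peak, and start 3, with the core CGTCA, was 17896 bp away. The Ntrk2 peak (chromosome 13, 58806570 to 58808047, 1478 bp) began 1 base after the RefSeq start and ran into the gene. The Sort1 peak (chromosome 3, 108282700 to 108284039, 1340 bp) covered the lower end of the gene at 108283974. Their scores were 9.36, 10.3 and 10.5, below the list's median of 10.7 and far below its highest value of 52.2, at ranks 3336, 2681 and 2503 of 4677. With only the upper part of the list by score, split at its middle, 0 of the 6 genes had a peak, against 10.3% of protein-coding genes. Their widths were above the median width of 747 bp.

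The other 3 genes had no peak at an end. A Ntrk3 peak (chromosome 7, 78577923 to 78578344, 422 bp, score 10.4) lay inside the gene, 2690 bp from its higher end and so just outside the window. It was included when the window was widened to 5000 bp, which gave 4 of 6 genes against 19.9% of protein-coding genes. The nearest peak to Ngfr was 124 kb away and the nearest to Ntf3 909 kb away. No value per ChIP-seq sample was analysed here, so wild-type and L3mbtl1-/- tissue were not compared at these peaks.

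**Figure D5:**
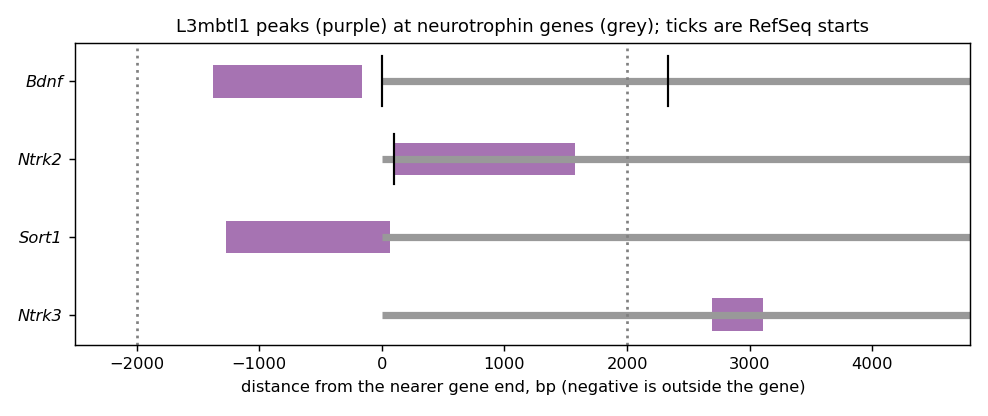
L3mbtl1 peaks (purple boxes, to scale) against the genes (grey lines), by distance in bp from the gene end nearer to the peak, with values below 0 outside the gene; dotted lines mark 2000 bp on each side and black ticks the RefSeq starts in view. The Bdnf, Ntrk2 and Sort1 peaks reach the window, and the Ntrk3 peak begins 2690 bp inside the gene.

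Facts of the libraries as a whole bear on these values. Gene counts per library ran from 14524916 to 19498189, so that each Bdnf value rests on at least 396 reads and each Ngfr value on 10 to 58. The neuronal gene Map2 was at 1720 to 3460 CPM and the astrocyte gene Gfap at 973 to 2280 CPM over the 8 libraries. Of 7 excitatory neuron markers 5 fell and Slc17a6 rose, and of 10 inhibitory neuron markers 5 rose and 2 fell. Microglia markers summed to 12.1 to 62.4 CPM in CTRL and 17.6 to 98.9 CPM in PTX, and of the microglia, oligodendrocyte and oligodendrocyte precursor markers 0 were called (2, 3 and 3 rises with the replicate block). The 8 endothelial and mural markers summed to 145 to 479 CPM in CTRL and 137 to 459 CPM in PTX, with Cldn5 at 0 to 0.168 CPM, Kdr at 16.3 to 52 CPM and Acta2 at 105 to 429 CPM, and of the 5 tested Flt1 rose (2.76-fold, edgeR adjusted p = 0.00618) and 0 fell. The part of changes in cell makeup in the results was not tested.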

How the data were processed

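For RNA-seq, the deposited tables hold raw whole-number counts, 1 table for each of 8 libraries with 1 row per Ensembl gene. The labels' protocols describe ribosomal RNA depletion of total RNA and ScriptSeq v2 libraries from 15 ng. The submitters' processing notes name mm10 as the build and the tools CASAVA 1.8, Bowtie2 2.2.4, TopHat2 2.0.9 and HTSeq 0.6.1. The sources used here give neither the role of each tool nor the strand setting or annotation. The 5 summary lines of each table entered no library size or test. The line for reads assigned to no counted feature held 19.9% to 26.8% of a table's total. The 4677 peaks carry a score deposited by the authors, whose meaning, like the peak caller and the pooling, is not stated there. Symbols came from a gene name table (42462 of 43629 identifiers matched), and positions and promoter windows from RefSeq (GRCm38.p6).

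The PTX against CTRL test was edgeR's quasi-likelihood F test (version 4.0.16, R 4.3.3) with TMM scaling, filterByExpr by group and no term beside the group, with Benjamini-Hochberg adjustment over 15959 genes and a threshold of 0.05. P-values set the difference between the groups against the variation between these cultures within a group. The test was also run on simulated counts drawn independently for each library. That check does not cover same-numbered libraries that deviate together. Peaks were set against 2000 bp on each side of both gene ends with an overlap of at least 1 bp, since the position table has no strand. Profile likeness used log2 CPM with a prior count of 2.

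Same-numbered CTRL and PTX libraries deviated together from their group means (r = 0.77, 0.57, 0.15 and 0.61 across genes). CTRL replicate 3, however, correlated slightly more with PTX replicates 2 and 4 (r = 0.21 each) than with PTX replicate 3. The labels do not say what a number shares. The main fit has no term for the number, and a fit with it as a block is given as an alternative. Alternatives were the replicate block, RLE and upper quartile scaling, no filter, DESeq2 1.42.0, leaving out each library, leaving out both libraries numbered 1 (for the within-library ratios, leaving out libraries was added after seeing the data), and other peak windows and scores.

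The 6 genes and the lists were chosen with earlier results of these data known. Named genes are the 6 genes, Ntf5, in each list the 4 called members of smallest p or all where 5 or fewer were called, and the 3 nearest profiles of each gene. Pcsk5, Serpini1, Mmp3, Bhlhe40, Crtc1, Mef2c, Usf1, Gdnf, Gfra2, Creb1, Sh2b2, Slitrk5, Sorcs1 and Rtn4r were named after their values were seen. Some genes of the lists and of the rule are not reported here, though the counts over lists include them. No list was tested as a set.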

Additional observations from a re-analysis of the deposited data

Results flagged for a closer look

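Single libraries stood apart from the other 3 of their group in 7 of 122 groups of 4 (61 genes in CTRL and in PTX), by a gap that was large against the group's range (Dixon's test). Chance gives about 1 in 20 groups, so this number is near what chance gives. Sorcs3, the sortilin family gene that rose, was at 53.3 CPM in CTRL replicate 2 and at 32 to 32.7 CPM in the other CTRL libraries, and that library was also the highest of CTRL for Bdnf. Mmp3, a protease, was at 3.89 CPM in CTRL replicate 1 against 0.327 to 0.399 CPM. Stat3, near Ntrk2 in profile, was at 108 CPM in CTRL replicate 1 against 147 to 151 CPM. Carf, a factor acting at a Bdnf promoter, was at 53 CPM in CTRL replicate 1 against 45.8 to 46.9 CPM. Smarcc2, near Sort1 in profile, was at 195 CPM in CTRL replicate 3 against 182 to 183 CPM. Sorl1, a sorting receptor, was at 169 CPM in PTX replicate 4 against 130 to 134 CPM. Ddt, near Ntf3 in profile, was at 3.32 CPM in PTX replicate 1 against 3.77 to 3.86 CPM.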

How the results depend on the processing

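The calls of Bdnf, Ntrk2 and Sort1 held under all 14 alternatives, with log2 fold changes of 3.91 to 4.52, 0.66 to 0.82 and -0.62 to -0.49. Ntf3 (0.05 to 0.29) and Ngfr (-1.25 to -0.30) passed under 0 of 14. Ntrk3 (-0.23 to -0.06) passed under 1, the replicate block, which pairs the libraries by number (-0.19, edgeR adjusted p = 0.0368). Of the lists, BDNF vesicle transport had 4 calls, and 7 both with the replicate block and with upper quartile scaling. The sortilin and Ngfr partner list had 10 calls, and 5 to 11 when single libraries were left out. The number of the 6 genes with a peak went from 3 to 0 with only the peaks of higher score. The replicate block changed no other call of the 6 genes and moved no other list's count of calls by more than 1.5 times. Over all genes 6248 calls became 8820 with the block, 6540 with DESeq2 and 5119 to 6229 without single libraries. Depth limits Ngfr, with 10 to 58 counts per library, and left Ntf5 untested.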
